A study of Rattus norvegicus with 10 samples.

Results

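The guidance ligands and receptors first described in growing axons were followed here in the fetal rat heart. Members were chosen by symbol, with earlier results of these data known. They are semaphorins, plexins, neuropilins, ephrins, Eph receptors, Slits, Robo receptors, netrins and netrin receptors whose FPKM averaged 0.1 or more across all 10 libraries. The rule found 72 symbols among the 18025 genes listed, of which 61 passed and 11 were lower. Hearts of wild-type Sprague-Dawley fetuses were taken at embryonic day 19.5. The parents were 3 months old at the start. In the control (CON) group the dams had been injected with citric acid buffer, and in the hyperglycemia (HG) group with streptozotocin (STZ), a toxin of the insulin-producing β cells, in the same buffer. Each group has 5 libraries of heart messenger RNA. The labels and the paper's methods name hearts, while a figure legend of the paper names isolated cardiomyocytes. The labels do not say which fetuses shared a dam, so that p-values measure the spread between these libraries, which may include littermates. The sources differ on whether the dams were assigned before or after mating.

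Guidance genes encode short-range and secreted signals that attract or repel cells. Secreted class 3 semaphorins bind neuropilins, which pair with class A plexins, while most membrane-bound semaphorins bind plexins directly. Slits are large secreted ligands of Robo receptors, and netrins bind Dcc and Unc5 receptors. Ephrins are tethered to the cell surface and signal to Eph receptor tyrosine kinases on the neighbouring cell. In the heart and its vessels these genes are known for outflow tract septation, sprouting of endothelial cells, the border between arteries and veins, and the course of sympathetic nerves.

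The values are FPKM, reads scaled by gene length and library size, so that levels can be compared between genes. Between 17639895 and 18240006 reads lay on genes in the CON libraries and between 16672876 and 19109844 in the HG libraries. Log2 differences are HG minus CON on the log2(FPKM + 0.1) scale, which understates the change of low genes. A gene was called at a Benjamini-Hochberg adjusted p under 0.05 over the 14542 genes tested with limma, and a DEG also had an absolute log2 difference above 1 (SE is its standard error). The median over all genes tested was 0.09.

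The 10 called members with the largest log2 differences were the receptor gene Robo1 and its ligand Slit2, the Eph receptor genes Epha8, Ephb2, Epha2 and Ephb3 and the ligand Efna4, all higher in HG, and the class 3 semaphorins Sema3g and Sema3b and the scarce Ntng2, all lower. Of the 61 members, 19 were higher in HG, 6 were lower and 36 were not called. These are 31.1% higher and 9.84% lower, against 28.4% and 11.8% of all genes tested. In all, 41.0% of the members were called, against 40.1% of all genes. The groups did not overlap in 17 members (27.9%), 15 of them higher in HG, against 27.4% of all genes. All of these shares lie near those of all genes. The median absolute log2 difference was 0.35 over called members and 0.31 over all called genes. There was 1 DEG higher in HG, Robo1, and 1 lower, Ntng2, where 0.866% of all genes were DEGs higher and 1.07% DEGs lower (1.94% in all).

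Of 26 receptor genes, 12 were higher in HG and 0 lower (46.2% called, median log2 difference 0.19), with 11 whose groups did not overlap. Of 31 ligand genes, 7 were higher and 5 lower (38.7% called, median 0.09). Both called shares lie near the 40.1% of all genes, but the shares by direction differ more. Of the receptor genes 46.2% were higher, 0% lower and 42.3% without overlap. Ligand genes gave 22.6%, 16.1% and 19.4%, and all genes tested 28.4%, 11.8% and 27.4%. The difference between receptors and ligands was not tested. The counts depended on the scaling of the libraries. With median-of-ratios factors, which equalize the typical gene between libraries, 8 receptor genes were higher and 3 lower, and 3 ligand genes were higher and 6 lower. Of all called genes 47.4% were higher with these factors, against 70.7% with the deposited FPKM. The share of all genes called with the factors is not given here. These and later counts with the factors therefore cannot be set against the 28.4% and 11.8%.

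**Figure D1:**
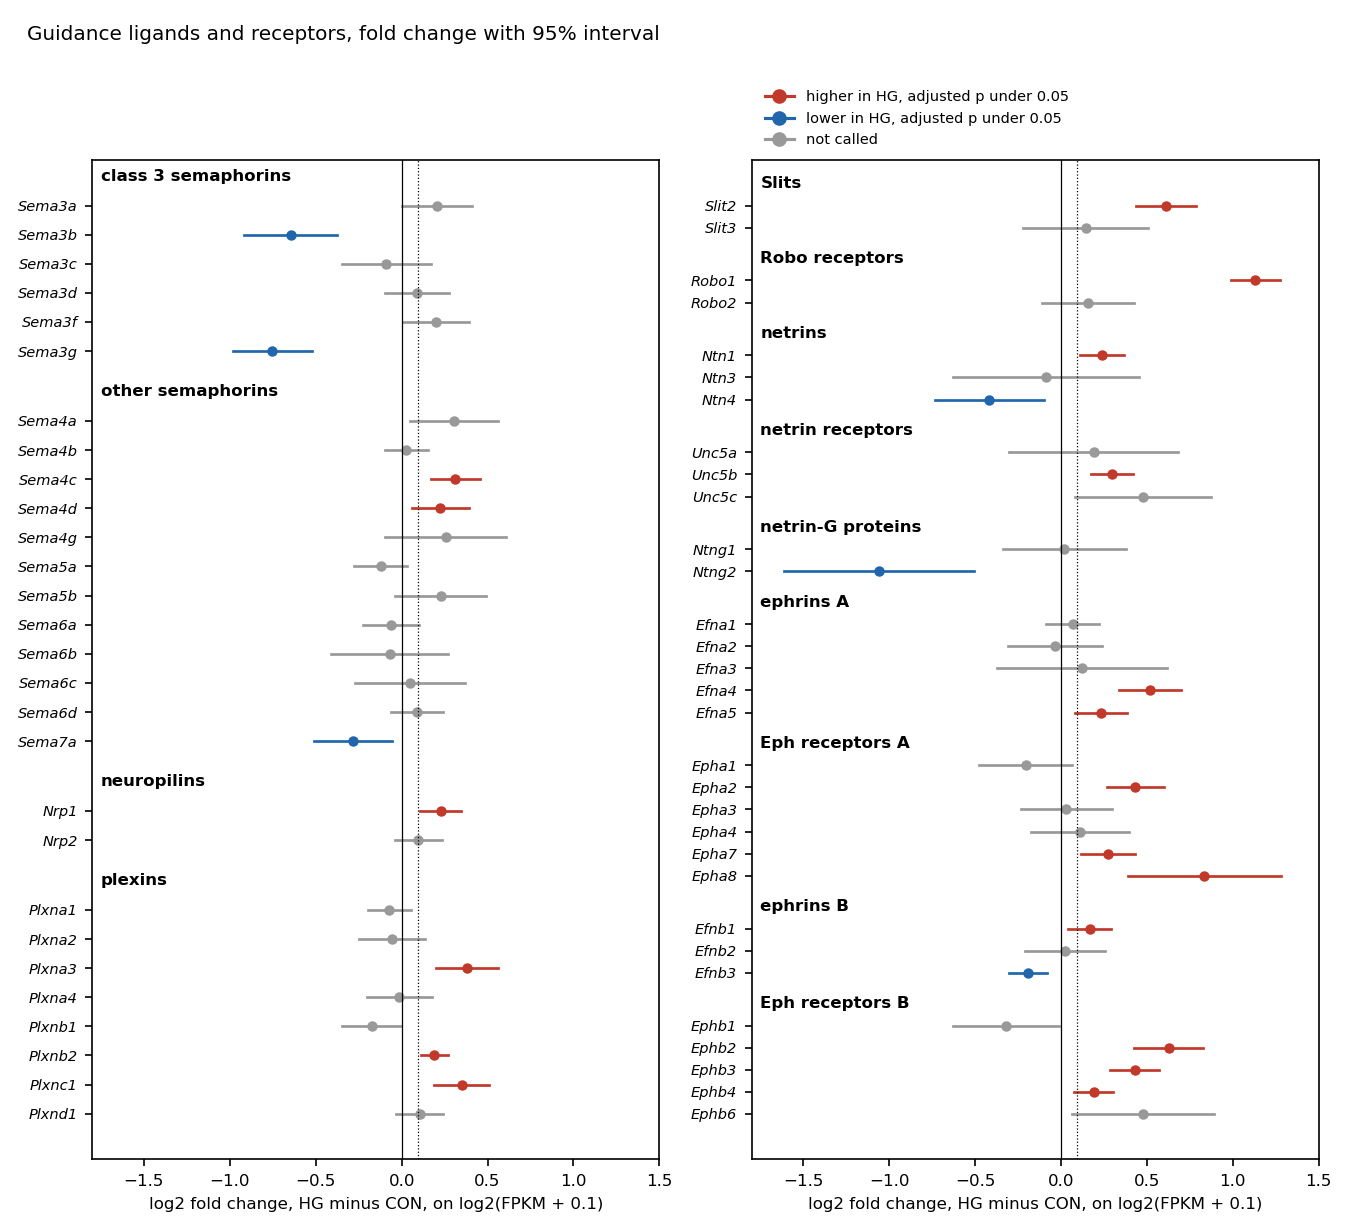
Log2 difference (HG minus CON, on log2(FPKM + 0.1)) of the 59 guidance genes with its 95% interval, by family. Red and blue mark genes called higher and lower in HG, the solid line is 0 and the dotted line the median of all genes tested, 0.09. Robo1 lies farthest to the right at 1.13 and Ntng2 farthest to the left at -1.06.

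Slits and Robo receptors hold the largest increase. Robo1 (NCBI Gene 58946) was the more abundant of the 2 Robo genes that passed the filter, and Robo4 was not among the symbols found. Robo1 read 3.38, 3.80, 3.71, 3.85 and 3.59 FPKM in CON replicates 1 to 5 and 8.85, 7.59, 8.15, 7.51 and 8.69 FPKM in HG replicates 1 to 5. Every HG library lay above every CON library. The mean went from 3.67 ± 0.185 to 8.16 ± 0.616 FPKM (SD, n = 5 each), a ratio of 2.22 (log2 difference 1.13, SE 0.0654, adjusted p = 4.77e-07 from limma). It rested on 679 to 1874 reads per library and was called in every alternative run. Robo2 (84409), the second receptor, averaged 0.720 ± 0.0648 FPKM in CON libraries and 0.818 ± 0.111 in HG libraries (log2 difference 0.16, 95% interval -0.11 to 0.42, adjusted p = 0.334). Robo1 thus made up 83.6 ± 0.648% of the summed FPKM of both genes in CON and 90.9 ± 1.29% in HG, a share that does not depend on the scaling of the library, and the groups did not overlap in it.

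Slit2 (360272) also rose. It read 7.01, 8.81, 7.95, 8.76 and 8.52 FPKM in the CON replicates and 11.4, 13.7, 13.1, 11.1 and 13.7 FPKM in the HG replicates, without overlap. The means were 8.21 ± 0.753 and 12.6 ± 1.27 FPKM (log2 difference 0.61, SE 0.0812, adjusted p = 0.000128). Slit3 (83467) was at 2.98 ± 0.699 and 3.29 ± 0.693 FPKM (log2 difference 0.14, 95% interval -0.22 to 0.51, adjusted p = 0.530). The ratio of ligand to receptor, Slit2 over Robo1, was 2.24 ± 0.125 in CON and 1.55 ± 0.189 in HG, without overlap. Slit1 and Robo3, known mostly from the nervous system, fell below the filter, with at most 7 reads and 1 read in a library.

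Robo1 has 2 starts in the RefSeq table, and the deposited value per gene sums reads from both, so that the start behind the increase cannot be read from these values. The 250 bases before each start are shown, since they are the sequences next to the largest change. Those of Ephb2 and Sema3g are also shown. Among called members averaging 1 FPKM or more, Ephb2 had the largest increase after Robo1, and Sema3g the largest decrease. Sema3b, next in decrease, had no window, and that of the scarce Ntng2 (8 CG dinucleotides) is left out. All windows shown are written 5′ to 3′ on the strand of the gene, from RefSeq (GRCr8), and capitals mark CG dinucleotides. The Robo1 windows lie at chr11:24067706-24067955, plus strand, and chr11:24714445-24714694, plus strand. That of Ephb2 lies at chr5:154360425-154360674, minus strand, and that of Sema3g at chr16:6419775-6420024, plus strand.
Robo1, first start: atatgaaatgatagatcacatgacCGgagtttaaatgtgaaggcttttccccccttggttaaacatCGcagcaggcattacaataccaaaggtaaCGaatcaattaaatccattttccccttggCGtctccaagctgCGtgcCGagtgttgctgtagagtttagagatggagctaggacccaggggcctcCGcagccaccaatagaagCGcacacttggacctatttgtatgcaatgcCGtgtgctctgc
Robo1, second start: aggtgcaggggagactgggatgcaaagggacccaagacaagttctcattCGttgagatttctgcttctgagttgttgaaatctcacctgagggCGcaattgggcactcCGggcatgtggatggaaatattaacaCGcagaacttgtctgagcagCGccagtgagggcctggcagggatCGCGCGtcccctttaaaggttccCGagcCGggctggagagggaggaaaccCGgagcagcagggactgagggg
Ephb2: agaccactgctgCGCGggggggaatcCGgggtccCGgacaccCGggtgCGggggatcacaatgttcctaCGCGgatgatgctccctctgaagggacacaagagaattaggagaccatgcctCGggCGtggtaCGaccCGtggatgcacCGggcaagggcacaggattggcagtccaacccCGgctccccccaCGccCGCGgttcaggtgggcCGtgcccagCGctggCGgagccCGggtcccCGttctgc
Sema3g: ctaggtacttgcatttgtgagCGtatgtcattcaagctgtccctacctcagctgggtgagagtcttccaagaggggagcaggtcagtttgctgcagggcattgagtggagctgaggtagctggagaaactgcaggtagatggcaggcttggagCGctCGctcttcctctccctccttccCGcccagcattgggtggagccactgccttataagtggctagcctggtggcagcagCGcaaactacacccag

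The Robo1 windows hold 9 and 11 CG dinucleotides, that of Ephb2 22 and that of Sema3g 5, where the median of all 33469 windows in the table is 5. Windows were found for 48 of the 61 members, 49 windows in all, with a median of 14 CG dinucleotides and 64.4% G or C (51.2% over all windows). The GC box GGGCGG, read on both strands, was present in 28 of the 49 windows (57.1%) and in 30.5% of all windows, and among the windows shown it was in that of Sema3g only. The TATA box TATAAA was in 0 of the 49 windows and in 12.9% of all windows, and the E-box CACGTG in 3 (6.12%) and in 5.59%. All windows cover 27457 genes with no filter on expression, whereas the members passed one, so that these shares do not set guidance genes against other expressed genes. These letters describe the windows and say nothing of a factor.

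Among the class 3 semaphorins, 2 of 6 members fell and none rose. The counts by family here and below rest on few members, and 28.4% of all genes tested were higher and 11.8% lower. Sema3g (290562), known from arterial endothelium, read 2.16, 2.42, 2.41, 2.55 and 1.92 FPKM in CON and 1.53, 1.41, 1.14, 1.23 and 1.27 FPKM in HG. All HG libraries lay below all CON libraries. The mean went from 2.29 ± 0.251 to 1.32 ± 0.152 FPKM (log2 difference -0.75, SE 0.106, adjusted p = 0.000186). Sema3b (363142) read 2.77, 3.08, 3.42, 3.07 and 3.99 FPKM in CON and 2.39, 2.05, 2.19, 2.12 and 1.53 FPKM in HG, again without overlap (log2 difference -0.65, SE 0.125, adjusted p = 0.00151). Both were called in every alternative run, on 72 to 168 reads for Sema3g and 73 to 202 reads for Sema3b.

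The other 4 class 3 semaphorins were not called, at log2 differences from -0.09 to 0.21. Sema3d (246262), the most abundant of the class and known for the patterning of pulmonary veins, read 4.41, 4.63, 4.19, 5.19 and 4.13 FPKM in CON and 4.93, 4.19, 5.13, 4.45 and 5.35 FPKM in HG (log2 difference 0.09, 95% interval -0.09 to 0.27, adjusted p = 0.430), with overlapping groups. Sema3c, required for septation of the outflow tract, went from 4.51 ± 0.564 to 4.25 ± 0.678 FPKM (adjusted p = 0.584). Sema3a, a repellent of sympathetic axons, was at 1.41 ± 0.0794 and 1.65 ± 0.176 FPKM (adjusted p = 0.101), and Sema3f at 3.85 ± 0.349 and 4.45 ± 0.515 FPKM (adjusted p = 0.0926). Within the class, the share of summed FPKM held by Sema3g went from 11.6 ± 1.34% to 7.11 ± 0.517% and that of Sema3b from 16.5 ± 2.34% to 11.1 ± 1.76%, while Sema3f went from 19.4 ± 1.70% to 24.0 ± 1.77%. The groups did not overlap in these 3 shares. Sema3e was under the filter, with 2 to 10 reads per library.

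Of the neuropilins, Nrp1 (246331), which also binds VEGF, rose slightly. It read 25.1, 25.8, 28.1, 23.2 and 27.5 FPKM in CON and 29.3, 31.2, 30.9, 28.2 and 32.1 FPKM in HG (log2 difference 0.23, SE 0.0554, adjusted p = 0.00634). The groups were separate by a narrow margin, and with median-of-ratios factors Nrp1 was not called (0.14, adjusted p = 0.0622). Nrp2 was at 4.15 ± 0.243 and 4.45 ± 0.212 FPKM (adjusted p = 0.240).

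Plexins, the signalling receptors of semaphorins, showed 3 of 8 members higher and 0 lower. Plxna3 (309280) read 4.96, 5.51, 5.12, 6.01 and 6.43 FPKM in CON and 8.03, 6.60, 7.70, 6.67 and 7.55 FPKM in HG (log2 difference 0.38, adjusted p = 0.00358), without overlap. Plxnc1 (362873), a receptor of Sema7a, read 3.52, 3.65, 3.16, 3.27 and 3.40 FPKM in CON and 3.77, 4.68, 4.28, 4.43 and 4.66 FPKM in HG (0.35, adjusted p = 0.00297), also without overlap. Plxnb2 (315217), the most abundant plexin, read 50.3, 51.3, 52.1, 54.1 and 50.5 FPKM in CON and 61.9, 59.0, 58.4, 59.2 and 56.1 FPKM in HG. Its increase was small and regular (0.19, SE 0.0356, adjusted p = 0.00128), and it was not called with median-of-ratios factors (0.10, adjusted p = 0.0746). Plxnd1, an endothelial receptor that patterns vessels, was at 46.3 ± 3.01 and 49.9 ± 4.24 FPKM (adjusted p = 0.203). Plxna1, Plxna2, Plxna4 and Plxnb1 lay between -0.17 and -0.01 and were not called. With median-of-ratios factors Plxna1 (-0.16, adjusted p = 0.0435) and Plxnb1 (-0.26, adjusted p = 0.0173) were called lower. Plxnb3 was under the filter.

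Of the 12 semaphorins of classes 4 to 7, 2 were higher, 1 was lower and 9 were not called. Sema4c (301346), a ligand of Plxnb2, read 6.73, 6.40, 6.99, 7.40 and 7.18 FPKM in CON and 8.24, 9.26, 9.06, 7.64 and 9.09 FPKM in HG (log2 difference 0.31, adjusted p = 0.00250), without overlap. Sema4d, a ligand of Plxnb1, went from 3.20 ± 0.232 to 3.76 ± 0.316 FPKM (0.23, adjusted p = 0.0348). The GPI-anchored Sema7a (315711) read 8.27, 6.81, 7.95, 8.61 and 9.14 FPKM in CON and 6.40, 5.99, 7.45, 8.14 and 5.60 FPKM in HG. Its groups overlapped (-0.28, adjusted p = 0.0495). Sema7a lost its call in 11 of 19 alternatives, with an adjusted p between 0.0148 and 0.113, highest when HG replicate 5 was left out. Sema6d (311384), the most abundant of the 12, read 11.1, 10.1, 11.1, 11.6 and 11.7 FPKM in CON and 10.5, 12.5, 13.1, 10.8 and 12.4 FPKM in HG (0.09, 95% interval -0.06 to 0.24, adjusted p = 0.320). The other members not called (Sema4a, Sema4b, Sema4g, Sema5a, Sema5b, Sema6a, Sema6b and Sema6c) had log2 differences from -0.12 to 0.31. Sema4a had the largest of these (0.804 ± 0.0788 FPKM in CON, 1.02 ± 0.137 FPKM in HG, adjusted p = 0.0566). Sema4f was under the filter, with 3 to 9 reads.

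**Figure D2:**
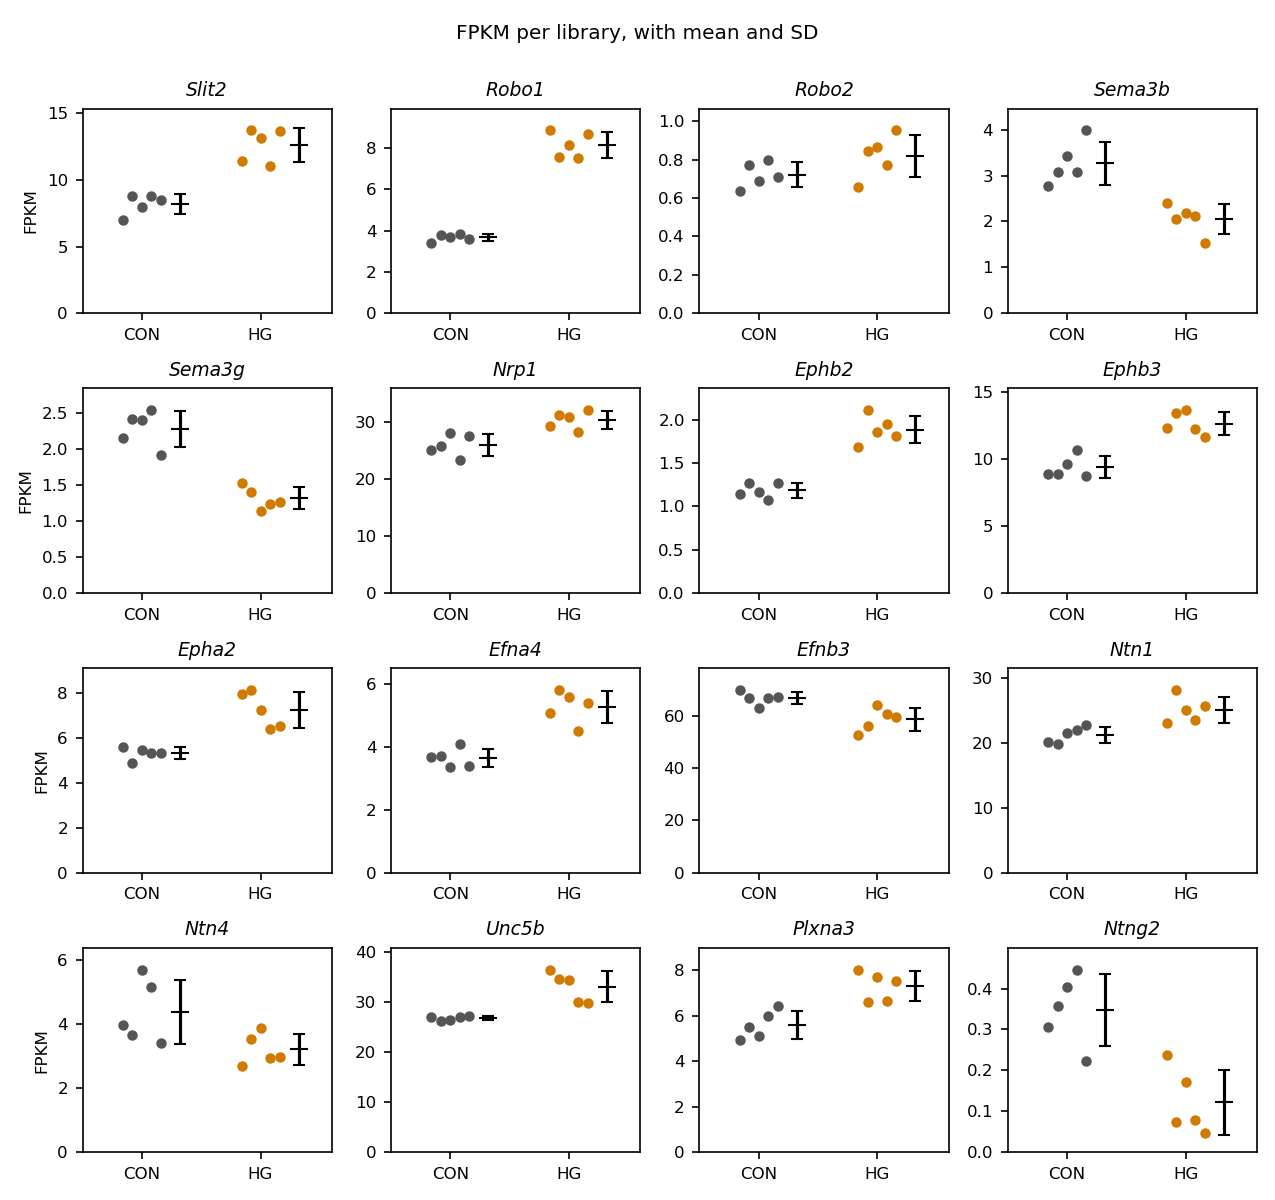
FPKM of 16 guidance genes in each CON and HG library (points), with the mean and SD of each group beside them. Robo1, Slit2 and Ephb2 separate the groups upward, Sema3b and Sema3g downward, while Robo2 overlaps and Ntng2 lies under 0.5 FPKM in all libraries.

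The Eph receptors, 6 of class A and 5 of class B among the 26 receptor genes, held 6 of the 12 receptor genes that rose. Their part of the increases was thus not far from their part of the receptor genes. Ephb2 (313633) read 1.14, 1.26, 1.17, 1.07 and 1.27 FPKM in CON and 1.69, 2.11, 1.86, 1.94 and 1.81 FPKM in HG (log2 difference 0.63, SE 0.0919, adjusted p = 0.000251). Ephb3 (287989) read 8.92, 8.92, 9.66, 10.7 and 8.78 FPKM in CON and 12.3, 13.5, 13.7, 12.3 and 11.6 FPKM in HG (0.43, SE 0.0665, adjusted p = 0.000366). The groups did not overlap in either gene. Ephb4 (686310), the venous receptor of Efnb2 and by level the main Eph receptor of these hearts, read 34.3, 31.9, 33.1, 33.5 and 31.7 FPKM in CON and 38.8, 41.5, 38.1, 35.5 and 34.0 FPKM in HG. Its increase was slight and the groups overlapped (0.19, adjusted p = 0.0124, and 0.10, adjusted p = 0.195 with median-of-ratios factors). Ephb4 held 73.7 ± 1.02% of the summed FPKM of the B class in CON and 70.4 ± 1.06% in HG, without overlap.

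Ephb1 moved the other way in level without being called, from 0.683 ± 0.105 to 0.526 ± 0.0734 FPKM (log2 difference -0.32, adjusted p = 0.0895, and -0.40, adjusted p = 0.0485 with median-of-ratios factors). Ephb2 over Ephb1 was 1.78 ± 0.401 in CON and 3.63 ± 0.512 in HG, with no overlap. Ephb6, which lacks kinase activity, was at 0.489 ± 0.136 and 0.715 ± 0.165 FPKM (adjusted p = 0.0645).

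In the A class, 3 of 6 receptors were higher. Epha2 (366492), the most abundant, read 5.62, 4.89, 5.49, 5.34 and 5.35 FPKM in CON and 7.98, 8.15, 7.25, 6.41 and 6.55 FPKM in HG (log2 difference 0.43, SE 0.0763, adjusted p = 0.000846). Epha8 (60589) read 0.190, 0.322, 0.184, 0.423 and 0.309 FPKM in CON and 0.498, 0.507, 0.782, 0.631 and 0.474 FPKM in HG. Its groups were separate, but only 16 to 67 reads lay behind a value (0.84, SE 0.204, adjusted p = 0.00640). Epha7 went from 2.73 ± 0.0889 to 3.33 ± 0.293 FPKM (0.27, adjusted p = 0.0106) and was not called with median-of-ratios factors (adjusted p = 0.0521). Epha1, Epha3 and Epha4 were not called, at -0.21, 0.03 and 0.11. Epha5, Epha6 and Epha10 were under the filter, with at most 3 reads in a library.

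Of the 8 ephrins, 3 were higher and 1 was lower. Efna4 (310643) read 3.68, 3.70, 3.36, 4.08 and 3.39 FPKM in CON and 5.06, 5.81, 5.58, 4.49 and 5.40 FPKM in HG, without overlap (log2 difference 0.52, SE 0.0819, adjusted p = 0.000415). Efna1 (94268), the most abundant A ephrin, read 7.11, 6.89, 6.62, 6.92 and 6.79 FPKM in CON and 6.78, 8.68, 7.32, 6.60 and 6.79 FPKM in HG (0.07, 95% interval -0.09 to 0.22, adjusted p = 0.492). Efna4 over Efna1 was 0.530 ± 0.0359 in CON and 0.730 ± 0.0546 in HG, so that the groups were separate in this ratio. With Efna4 called and Efna1 nearly level, the ratio is no separate result. Efna5 went from 4.23 ± 0.183 to 5.00 ± 0.413 FPKM (0.23, adjusted p = 0.0181), and Efna2 (-0.04) and Efna3 (0.12) were not called.

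Efnb3 (360546) was the most abundant of all 61 members. It read 69.8, 66.7, 63.0, 66.9 and 67.0 FPKM in CON and 52.6, 55.9, 64.1, 60.7 and 59.6 FPKM in HG, with HG replicate 3 above CON replicate 3 (log2 difference -0.19, SE 0.0511, adjusted p = 0.0109). Efnb1 went the other way, from 19.6 ± 1.23 to 22.1 ± 1.58 FPKM (0.17, adjusted p = 0.0358, and 0.08, adjusted p = 0.372 with median-of-ratios factors). Efnb3 over Efnb1 was 3.41 ± 0.258 in CON and 2.67 ± 0.320 in HG, without overlap. Efnb2, the arterial partner of Ephb4, was at 18.1 ± 1.27 and 18.6 ± 3.33 FPKM (0.02, 95% interval -0.21 to 0.25, adjusted p = 0.890).

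**Figure D3:**
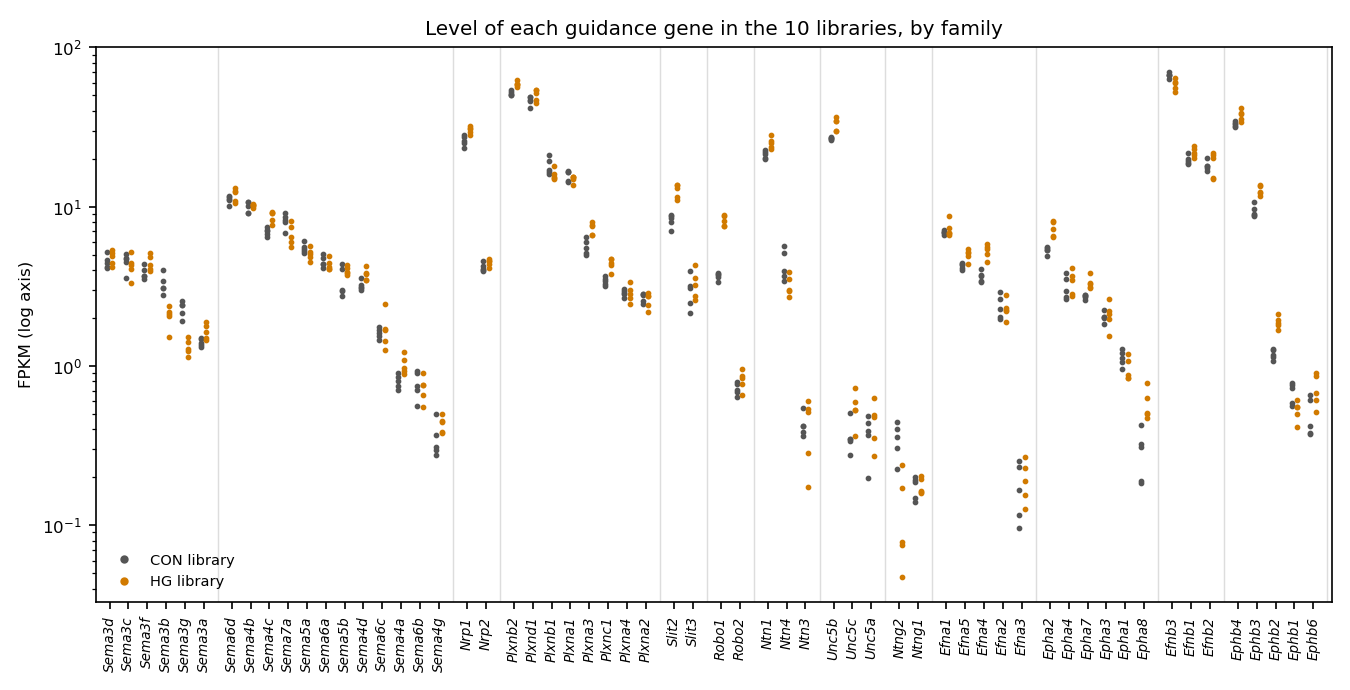
FPKM on a log axis of the 59 guidance genes in each CON (grey) and HG (orange) library, by family and ordered by mean within it. Efnb3, Plxnb2, Plxnd1 and Ephb4 lie highest, and Efna3 and the netrin-G genes lowest.

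In the netrin system, the ligand Ntn1 and its receptor Unc5b rose together by a small amount. Ntn1 (114523) read 20.1, 19.8, 21.5, 22.0 and 22.7 FPKM in CON and 23.0, 28.1, 25, 23.5 and 25.7 FPKM in HG (log2 difference 0.24, adjusted p = 0.00704, and 0.15, adjusted p = 0.0638 with median-of-ratios factors). Unc5b (60630), found on endothelial cells, read 26.9, 26.2, 26.4, 27.0 and 27.2 FPKM in CON and 36.4, 34.6, 34.4, 30.0 and 29.7 FPKM in HG (0.30, SE 0.0565, adjusted p = 0.00135). The groups did not overlap in either gene, and the ratio of Ntn1 to Unc5b was 0.793 ± 0.0389 in CON and 0.764 ± 0.0891 in HG, with overlap. Unc5b made up 97.3 ± 0.595% of the FPKM of the Unc5 receptors in CON and 97.1 ± 0.579% in HG. Unc5a and Unc5c were at 0.19 and 0.48 and not called, the latter at 0.363 ± 0.0838 and 0.549 ± 0.131 FPKM (adjusted p = 0.0524). Dcc had at most 2 reads in a library, and Unc5d at most 7.

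Ntn4 (299737), a netrin of basement membranes, was lower. It read 3.96, 3.64, 5.69, 5.15 and 3.40 FPKM in CON and 2.70, 3.54, 3.88, 2.95 and 2.98 FPKM in HG. The groups overlapped (log2 difference -0.42, SE 0.146, adjusted p = 0.0381). Ntn4 lost its call in 7 of 19 alternatives, with an adjusted p between 0.0160 and 0.0898, highest when CON replicate 3 was left out. Ntn3 was at 0.426 ± 0.0690 and 0.422 ± 0.184 FPKM, and Ntn5 was under the filter.

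Netrin-G proteins are anchored to the membrane and bind other partners than Dcc and Unc5. Ntng2 (311836) had the largest decrease of all members on the log2 scale and a very low level. It read 0.306, 0.358, 0.404, 0.446 and 0.224 FPKM in CON and 0.238, 0.0754, 0.171, 0.0785 and 0.0475 FPKM in HG, so that HG replicate 1 lay above CON replicate 5. These values stand for 4 to 41 reads per library (log2 difference -1.06, SE 0.254, adjusted p = 0.00586). Without CON replicate 4 or HG replicate 2, 4 or 5 it was still lower and called but no longer past the size set for a DEG. Ntng1 was at 0.173 ± 0.0273 and 0.177 ± 0.0210 FPKM. The rule also took in Unc50 (0.02) and Unc5cl (0.21), neither called, which share the letters of Unc5 but are not guidance receptors. Without them 19 of 59 members were higher and 6 lower.

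Some members are neighbours among the protein-coding genes of GRCr8. Efna1, Efna3 and Efna4 follow each other directly, and Efna4 was the one of the 3 that was called. Sema3b and Sema3f lie with 3 genes between them, the first lower in HG and the second not called. Ephb2 and Epha8, both higher in HG, have the 3 complement genes C1qa, C1qb and C1qc between them, and Robo1 and Robo2 have 1 gene between them.

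**Figure D4:**
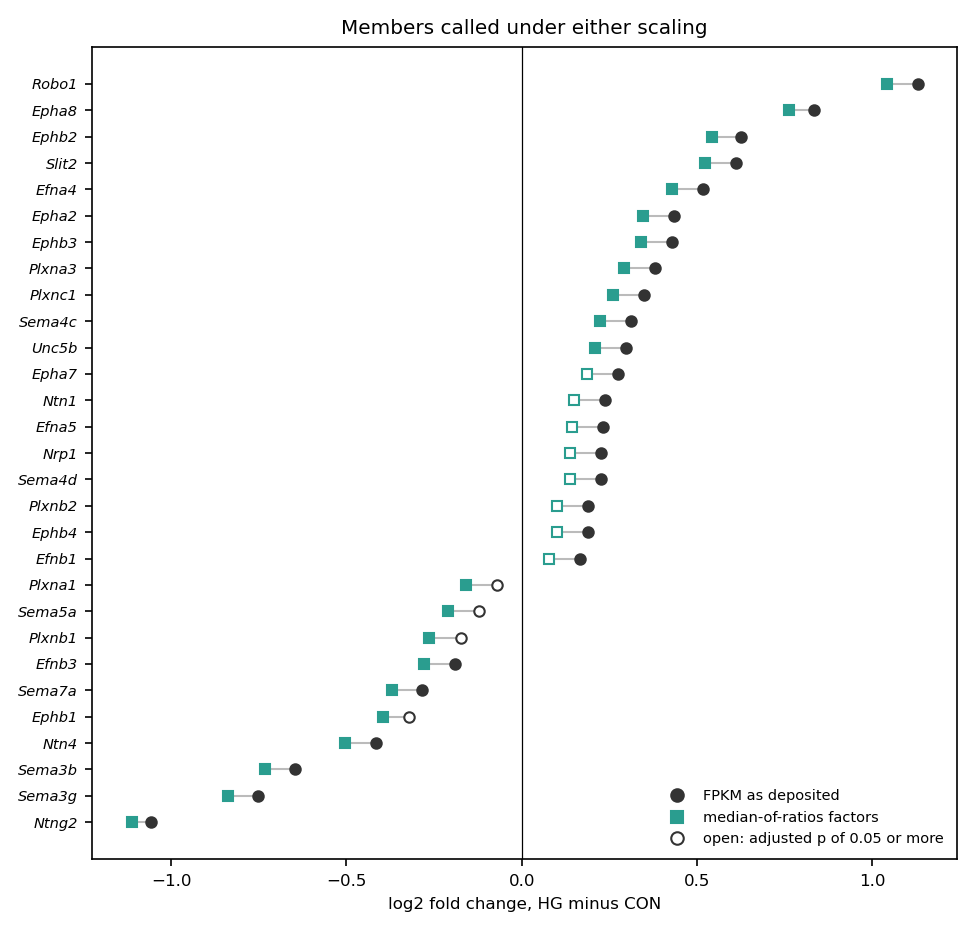
Log2 difference (HG minus CON) of members called with the deposited FPKM (circles) or with median-of-ratios factors (squares), where open symbols have an adjusted p of 0.05 or more. All 29 members moved to the left with median-of-ratios factors, and 12 of them changed their call.

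The calls of small differences depended on the scaling. With median-of-ratios factors the median over all genes tested was 0.01, and 21 members were called, 11 higher and 10 lower, against 25 with the deposited FPKM. The 2 sets shared 17 members, all with the same direction. The 8 members called only with the deposited FPKM were Efna5, Efnb1, Epha7, Ephb4, Nrp1, Ntn1, Plxnb2 and Sema4d, all higher, and the 4 called only with the factors were Ephb1, Plxna1, Plxnb1 and Sema5a, all lower. Over all genes, 70.7% of called genes were higher with the deposited FPKM and 47.4% with the factors.

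Other genes of guidance signalling were taken from 5 lists, and 104 of their 112 genes were tested. Of these, 40 were higher and 12 lower (50% called, against 40.1% of all genes tested), with a median log2 difference of 0.12. The lists were chosen with earlier results of these data known, so that the choice may bear on this share, which was not tested. With median-of-ratios factors the same 104 genes gave 22 higher and 18 lower. Among cues and receptors outside the families above, 8 of 22 were higher and 4 lower (54.5% called), and 5 and 4 with the factors. L1cam, an adhesion molecule of growing axons, went from 0.544 ± 0.161 to 1.13 ± 0.259 FPKM (0.94, adjusted p = 0.00246), without overlap. Flrt2, which binds Unc5 receptors, went from 3.32 ± 0.195 to 5.38 ± 0.284 FPKM (0.68, adjusted p = 1.14e-05), and the proteoglycan gene Sdc1 from 8.88 ± 1.13 to 14.1 ± 1.15 FPKM (0.67, adjusted p = 9.88e-05). Gpc1, a heparan sulfate proteoglycan that binds Slits, fell from 57.9 ± 2.39 to 41.5 ± 3.95 FPKM (-0.48, adjusted p = 9.07e-05), and Rgma, a ligand of the netrin receptor family member Neo1, from 6.52 ± 0.403 to 4.48 ± 0.536 FPKM (-0.54, adjusted p = 0.000344).

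Inside the cell, 9 of 22 adaptors and kinases were higher and 0 lower (40.9% called, near the 40.1% of all genes), among them Dok1 (0.50), Src (0.48) and Abl2 (0.35). With median-of-ratios factors 7 were higher and 4 lower. Of the exchange factors and activating proteins, 8 of 17 were higher and 1 lower (52.9% called), and with the factors 2 were higher and 2 lower. All genes tested gave 28.4% higher and 11.8% lower, and the choice of the lists may bear on these shares too. Cytoskeletal effectors went both ways, with 9 of 27 higher and 5 lower (51.9% called), and 7 and 6 with the factors. Pak1, a kinase downstream of Rac and Cdc42, was higher at 0.81 (adjusted p = 0.000464) and Mical1, an actin-oxidizing partner of plexins, at 0.59 (adjusted p = 6.45e-05), while the actin-binding genes Ablim1 (-0.67), Ablim3 (-0.53) and Enah (-0.33) were lower, each without overlap.

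Markers of the cell types that express guidance genes were given beside these results, and their part in them was not tested. Of all genes tested 28.4% were higher and 11.8% lower. In bulk heart libraries, fewer cells of a type and less RNA per cell cannot be told apart. The summed FPKM of 10 endothelial markers overlapped between the groups (290.6 to 317.6 in CON, 300.9 to 331.3 in HG), with 3 higher and 0 lower, but 1 higher and 2 lower with median-of-ratios factors. Those of 10 smooth muscle and pericyte markers were 834.2 to 951.4 in CON and 1035 to 1296 in HG, with 3 higher, 3 lower and no overlap. Acta2, Tagln and Cnn1 were higher and Rgs5, Cspg4 and Abcc9 lower (3 higher and 4 lower with the factors). Acta2 alone averaged 538 ± 42.6 FPKM in CON and 673 ± 65.4 FPKM in HG, so that it weighed most in the sum. The sums of 10 epicardial markers were 35.3 to 42.4 and 43.0 to 49.9, with 3 higher and 1 lower (2 and 1 with the factors). Tbx18 (9.38 ± 0.907 FPKM in CON, 13.6 ± 2.34 in HG) and Aldh1a2 (10.7 ± 1.49 and 14.1 ± 1.06) weighed most in these sums. The third marker called higher was Bnc1, and Upk1b was lower (-0.71). Cardiomyocyte markers, which mark the labelled tissue, summed to 28322 to 29917 in CON and 24185 to 28166 in HG (1 of 10 higher, 7 lower, and 1 and 8 with the factors). Fibroblast markers summed to 1762 to 2064 and 1592 to 1845 (2 of 10 higher, 5 lower, and 2 and 7 with the factors). Of 8 macrophage markers 3 were higher and 1 lower (35.3 to 41.6 and 39.1 to 50.5), and 2 and 1 with the factors. Of the 5 neuron markers that passed the filter, 1 was higher and 2 were lower (0 and 2 with the factors). The noradrenaline-synthesizing enzyme gene Dbh went from 1.59 ± 0.176 to 1.06 ± 0.173 FPKM (-0.55, adjusted p = 0.00403) and Prph, a neuronal intermediate filament gene, from 1.74 ± 0.321 to 1.26 ± 0.145 FPKM (-0.43, adjusted p = 0.0204), both without overlap, while Stmn2 was higher (0.64, adjusted p = 0.0403). Of 8 Schwann cell markers 3 passed the filter and 0 were called, with Sox10 under it, and their sums overlapped (4.32 to 5.07 in CON, 3.66 to 6.08 in HG). Red cell precursor markers were lower in 6 of 8 (62.1 to 112.4 and 40.8 to 58.5), and in 8 with the factors. Hepatocyte markers were at 3.15 to 80.1 in CON and 1.33 to 2.60 in HG, 4 of 6 lower (3 with the factors) and the highest in CON replicate 3. Without that library 17 members were higher and 4 lower.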

How the data were processed

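Messenger RNA of fetal rat hearts was sequenced in 10 stranded libraries, and the authors deposited FPKM per gene. The study's methods speak of a library from pooled RNA, whereas the deposited values differ between libraries. The submitters' processing notes name fastp, HISAT2, HTSeq and mRatBN7.2, without versions, and R 3.2.0. The annotation release and the strand setting of the counting are not given in the sources used here, so that antisense partners cannot be told apart. No per-sample column was left out (0 unused).

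Whole reads were recovered from the steps between values within 0.02 reads in 100.0% of genes (97.4% of genes exact in data with known reads). The test was limma 3.58.1 in R 4.3.3 (moderated, with a trend, no covariate, all 10 libraries) on log2(FPKM + 0.1), over genes that averaged 0.1 FPKM or more. The study's count test does not take FPKM. Tested on simulated reads over 14522 genes, the fit called 85 of 98 genes changed by 0.75 on the log2 scale, 97 of 99 changed by 1.5 and 7 of 14325 unchanged. The simulation gave every gene the same dispersion and changed few genes, equally in both directions. It held no difference in scaling and no shared dams, so that its rate of false calls does not carry over to these data. Shares and ratios have no test. The pairs for ratios were picked by hand and often set a called member against one not called or moving the other way. A separation in such a ratio is therefore no result apart from the calls. Of the pairs not described above, Slit2 over Slit3, Ephb3 over Ephb4 and Ntn1 over Ntn4 overlapped between the groups. Robo1 over Robo2, Sema3b over Sema3f, Sema3g over Sema3f and Sema3g over Nrp2 did not. Python 3.11.15, numpy 2.4.6, pandas 2.3.3 and matplotlib 3.10.9 were used. Replicate numbers are those of the labels.

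The members and lists were chosen with earlier results of these data known. Values in every library are given for DEGs, for up to 10 called members with the largest change in each direction and for the most abundant member of each family. From other lists, up to 3 called genes in each direction are named. The alternatives changed the pseudocount (1 or 0.01) or the filter (none, or 1 FPKM), or used median-of-ratios factors, quantile normalization, no trend, the replicate block, voom on recovered reads and each library left out in turn. The values of 1 of the 5 signalling lists and of 1 marker are not reported here.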

Additional observations from a re-analysis of the deposited data

How the results depend on the processing

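The counts of called members held within 1.5 times under 18 of 19 alternatives, and with median-of-ratios factors they were 11 higher and 10 lower. DEGs depended on the fold change scale. With a pseudocount of 1 there were 0 higher and 0 lower, with a pseudocount of 0.01 and with voom there were 2 higher (Robo1 and Epha8), and a filter at a mean of 1 FPKM left 0 lower. Over the libraries left out in turn, DEGs lower in HG were 0 or 1, and 0 without CON replicate 4, HG replicate 2, HG replicate 4 or HG replicate 5. Of 21 called members with values in every library, 15 kept direction and call under all alternatives run for them, and 6 lost the call in some (Ntn4, Sema7a, Ephb4, Nrp1, Ntn1 and Plxnb2). Efna1, not called, turned to -0.0213 with median-of-ratios factors and -0.0209 with quantile normalization, and Sema3d to -0.0160 with quantile normalization. The cause was not tested. With the replicate block 18 members were higher and 6 lower. Deviations of same-numbered libraries correlated from -0.13 to 0.11, so that no strong shared deviation was seen. These values cannot tell whether libraries were collected or prepared in pairs. Depth limits Efna3, Ntng2, Ntn3, Unc5a and Epha8 most, with a lowest library of 4 to 16 reads.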
